A study of Anas platyrhynchos with 2 samples.

Results

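The 150 genes described here are the exon-rich autosomal genes of moderate span in a count table of 11383 duck genes. They were chosen by a rule that uses the annotation alone, and no read count enters the rule. The rule itself was set with earlier results of these data known. From the 8941 genes on the 23 autosomes that reach at least 10 Mb, the 200 genes of largest genomic span and all genes with 20 or fewer exons were left out. Of the 1258 genes that remained, the 150 with most exons were taken, ties going to the longer exon sequence. The last gene inside had 42 exons and 14369 bp of exon, and the first outside had 42 exons and 10671 bp. Their levels, in RPKM (read counts scaled to library size and to kilobases of exon), were 1.76 in library B and 1.66 in library A inside, and 7.73 and 8.01 outside. The largest span inside was 251803 bp, the smallest span left out was 255814 bp, and 18 of the 200 genes left out for span had at least 42 exons. The exon numbers, spans and exon lengths that follow from this choice are given as description.

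RNA came from adult ducks of the Fujian Longyan Shan-ma breed of Anas platyrhynchos, and it accompanied a genome assembly of that breed. Library B is labelled with 9 organs (lung, heart and spleen, kidney and ovary, brain and eye, skin and muscle) and library A with 5 (blood, liver and pancreas, stomach and intestine). The series text names a female donor and a male donor, with testis in place of ovary in the male, and pooling of RNA over tissues, so neither library stands for a sex or an organ. No treatment or genotype distinguishes them, and there is 1 library per label, so no difference has a replicate check. Library B held 41792653 counted reads and library A 20047449. In pooled organs, fewer cells of a type and less RNA per cell cannot be told apart. Gene IDs in the files matched 0 of 26024 genes of a reference table, so genes are given by position on the study's own assembly, and by ID where a fixed rule selected them.

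Vertebrate genes with many exons often encode long proteins, among them collagens, large motor and scaffold proteins, and extracellular proteins assembled from repeated domains. An inner exon whose length is divisible by 3 can be left out or duplicated without shifting the reading frame. Genes for repeat proteins often carry series of inner exons of equal or related length. Inner exons are here all exons but the first and the last in the direction of transcription. Summed exon length was divisible by 3 in 33.6% of the genes of the table, so exons are not coding sequence alone and reading frames could not be assigned.

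The 150 genes had 42 to 120 exons, with a median of 53, and 7 of them had at least 100. Their exons summed to 3976 to 33507 bp, with a median of 9788.5 bp, and their spans ran from 13812 to 251803 bp, with a median of 82983 bp. The 1108 genes with over 20 exons that followed in the order had a median of 25 exons, and all 8791 other genes of these autosomes had a median of 9.

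The gene with most exons, Apl_2G0013280, lay on the minus strand of chromosome 2 at 157180624 to 157358164 and had 120 exons and 33507 bp of exon. The most frequent length was 267 bp, in 26 of 118 inner exons, and 65 exons lay within 10% of it, at 249 to 288 bp. It contained a series of 10 adjacent exons of 276 bp. Its other exons varied in length, and exon 109 measured 3670 bp. It had 2647 reads in library B and 1207 reads in library A, or 1.88 and 1.80 RPKM. Next was Apl_5G0001160 (chromosome 5, 7541142 to 7728346, plus strand), with 118 exons. It had no such series, since its most frequent inner length, 156 bp, occurred in 6 of 116 inner exons. Its level was 8.11 RPKM in library B and 8.30 RPKM in library A. The third in exon number, a gene of 107 exons on chromosome 22 at 6789963 to 6869414, had 10.9 RPKM in library B and 11.7 RPKM in library A, and 38.1% of its inner exons were divisible by 3. The fourth and the fifth were a pair on chromosome 8 that had the lowest levels of the 150.

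**Figure D1:**
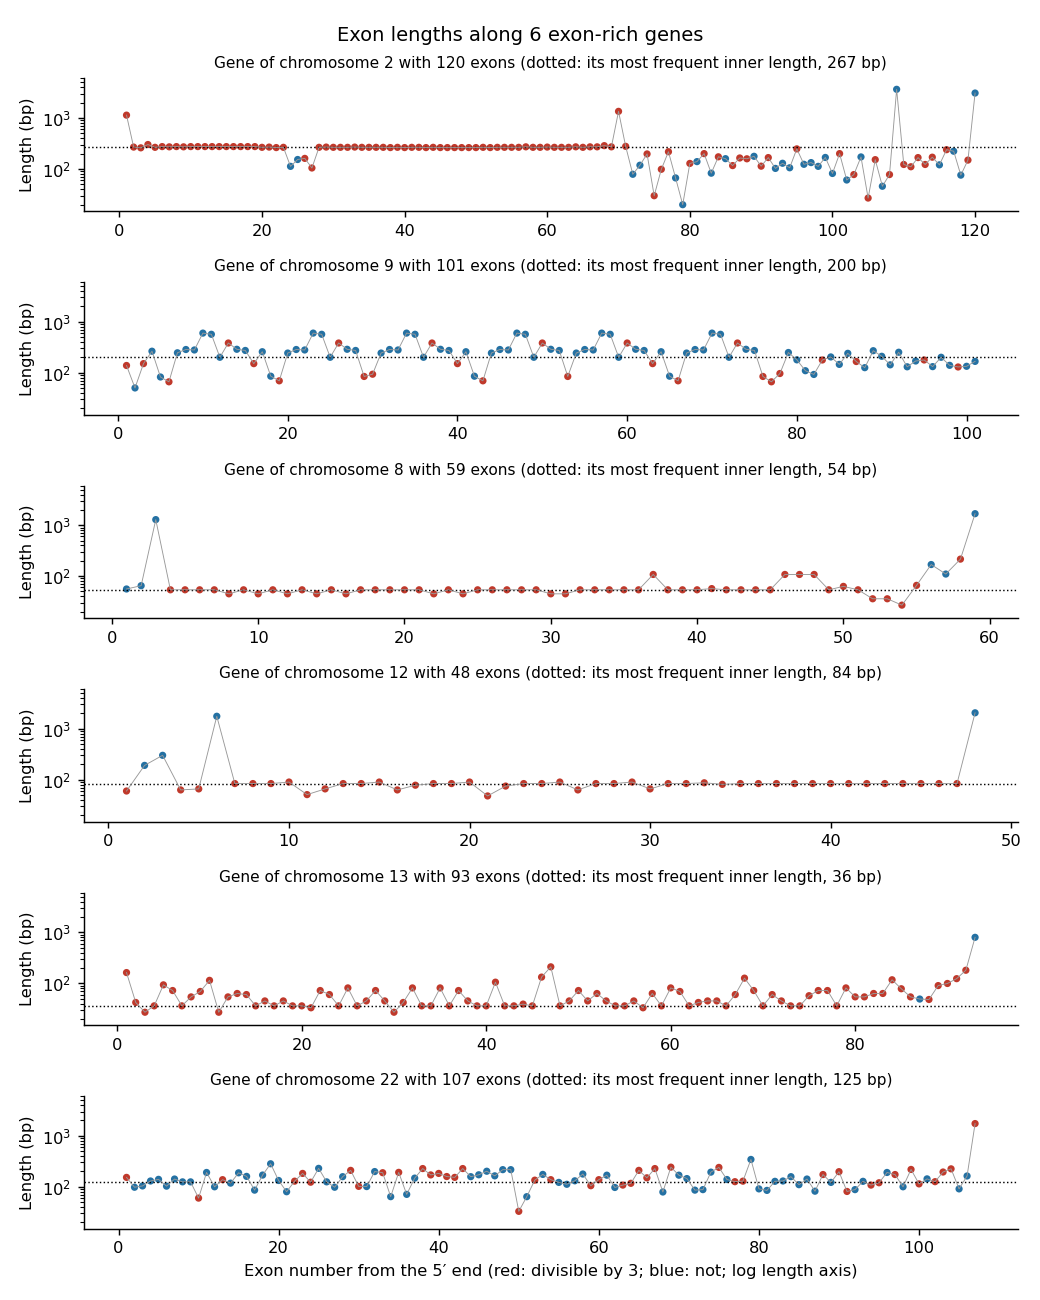
Exon length in bp on a log axis against exon number from the 5′ end, for 6 of the 150 genes. Red points are exons divisible by 3 and blue points are not, and the dotted line is each gene's most frequent inner length. The gene of chromosome 2 has long stretches near 267 bp, and the gene of chromosome 12 has a level stretch at 84 bp. The gene of chromosome 8 returns often to 54 bp, with 45 and 108 bp in between. The gene of chromosome 9 repeats a block of 8 lengths 6 times, and the gene of chromosome 22 shows no such pattern.

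A single length recurred among the inner exons of 17 of the 150 genes (11.3%), by a rule of at least 5 inner exons and at least 20% of them. The same rule was met by 18 of the 1108 next genes with over 20 exons (1.62%) and by 3 of the 200 genes of largest span (1.5%). The recurrent length was 54 bp in 9 of the 17 genes. In the other 8 it was 27, 36, 75, 84, 99, 105, 126 or 267 bp, a different length in each gene. Every one of these lengths is divisible by 3. The 17 genes had a median level of 2.87 RPKM in library B and 2.73 RPKM in library A, against 6.92 and 7.05 RPKM in the 133 genes without a recurrent length.

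Exons of 54 bp made up 289 of 8522 inner exons of the 150 genes (3.39%) and 375 of 82823 in the other genes of these autosomes (0.453%). It was the most frequent inner length of the 150 genes and ranked 100 among the other genes. Of the 289, 246 (85.1%) lay in the 9 genes with the recurrent length of 54 bp, and in the remaining members 54 bp accounted for 0.537% of inner exons. The 9 genes also held 61 inner exons of 45 bp, 51 of 108 bp, 15 of 99 bp and 3 of 162 bp. All exons of 99 and 162 bp lay in the gene of chromosome 2 at 134723509 to 134761873 and a neighbouring pair on chromosome 7. The rest of the 9 genes had neither length. Together these 5 lengths made up 376 of their 512 inner exons (73.4%), against 3.75% in the other members. Lengths divisible by 9 made up 82.8% of inner exons in the 9 genes and 16.3% in the other members. As background, series of exons of 54 bp with 45, 99, 108 and 162 bp among them are known from the helix-coding part of vertebrate fibrillar collagen genes, which encode the main fibres of connective tissue. The files give no names, sequences were not compared, and none of the 9 genes is assigned to that family here.

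The largest share of a single length was found on chromosome 8 at 20250812 to 20383238, in a gene of 59 exons in which 33 of 57 inner exons (57.9%) measured 54 bp. From exon 4 its lengths read 54, 54, 54, 54, 45, 54, 45, 54, 45 and 54 bp. It had 266 reads in library B and 126 in library A, or 0.978 and 0.972 RPKM. A gene of chromosome 18 at 5174558 to 5244104 had 36 exons of 54 bp among 67 inner exons, 10 of them adjacent, with 2.20 RPKM in library B and 2.06 RPKM in library A. A gene of chromosome 2 at 5200519 to 5401313 had 30 among 61, and with 71 reads in library B and 36 in library A it stood at 0.339 and 0.361 RPKM. Genes with the same most frequent inner length thus differed widely in level. Of the others, the gene of chromosome 8 at 8024480 to 8167083 had 31 exons of 54 bp and 3.53 RPKM in library B and 3.83 RPKM in library A. The gene of chromosome 18 at 8340579 to 8490598 had 29, with 4.24 RPKM in library B and 3.87 RPKM in library A. The gene of chromosome 3 at 92112983 to 92316110 had 17, with 208 reads in library B and 114 reads in library A.

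The most highly expressed gene with the recurrent length of 54 bp lay on chromosome 2 at 134723509 to 134761873, with 50 exons, 23 of them of 54 bp. It had 22060 reads in library B and 10110 in library A, or 84.7 and 81.5 RPKM. A pair of neighbours on chromosome 7, separated by 8922 bp and on opposite strands, had the same recurrent length. The gene at 35571033 to 35621099 had 51 exons and 55.3 RPKM in library B and 54.4 RPKM in library A. The gene at 35630022 to 35730926 had 54 exons and 14.9 RPKM in library B and 16.0 RPKM in library A. These 3 genes shared long series of inner exon lengths in the same order. The gene of chromosome 2 had 42 adjacent inner exons of matching length with the second gene of the pair and 41 with the first, and the pair had 41 between them. The gene of chromosome 2 was the highest of the 3 and the second gene of the pair the lowest in both libraries. Over all 11383 genes, 16 had the recurrent length of 54 bp. The 7 that were not members included 2 of the same autosomes, with 30 and 32 exons, and 5 on smaller autosomes or a contig. One of these, on chromosome 28 at 3045582 to 3060726, had 51 exons and 59.1 RPKM in library B and 55.7 RPKM in library A, and it matched 26 adjacent inner exons of the gene of chromosome 2.

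Recurrent lengths other than 54 bp were found in the remaining 8 of the 17 genes. On chromosome 12 at 11581488 to 11627305, a gene of 48 exons had 26 of 46 inner exons (56.5%) of 84 bp, and exons 35 to 47 formed a series of 13 adjacent exons of that length, the longest such series among the 150 genes. It had 2.87 RPKM in library B and 2.73 RPKM in library A. On chromosome 13 at 12221447 to 12239763, a gene packed 93 exons into 18317 bp, with 26 exons of 36 bp and a median intron of 107.5 bp. It had 527 reads in library B and 251 in library A, or 1.99 RPKM in each. On chromosome 11 at 3617208 to 3777489, a gene of 66 exons had 18 of 126 bp and reached 18.9 RPKM in library B and 20.2 RPKM in library A. On chromosome 6 at 7467005 to 7559301, a gene of 43 exons had 10 of 27 bp, 5 of them adjacent, and a last exon of 5503 bp. Its level was 2.67 RPKM in library B and 2.40 RPKM in library A. The lengths of 105, 99 and 75 bp belonged to genes of chromosomes 6, 4 and 1. The gene of chromosome 6 at 32666813 to 32719029 had 7.40 RPKM in library B and 8.21 RPKM in library A. The gene of chromosome 4 at 5787859 to 6015306 reached 24.7 RPKM in library B and 24.0 RPKM in library A. The gene of chromosome 1 at 89959806 to 90137964, with 8 adjacent exons of 75 bp, was near the bottom at 0.310 RPKM in library B and 0.285 RPKM in library A.

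**Figure D2:**
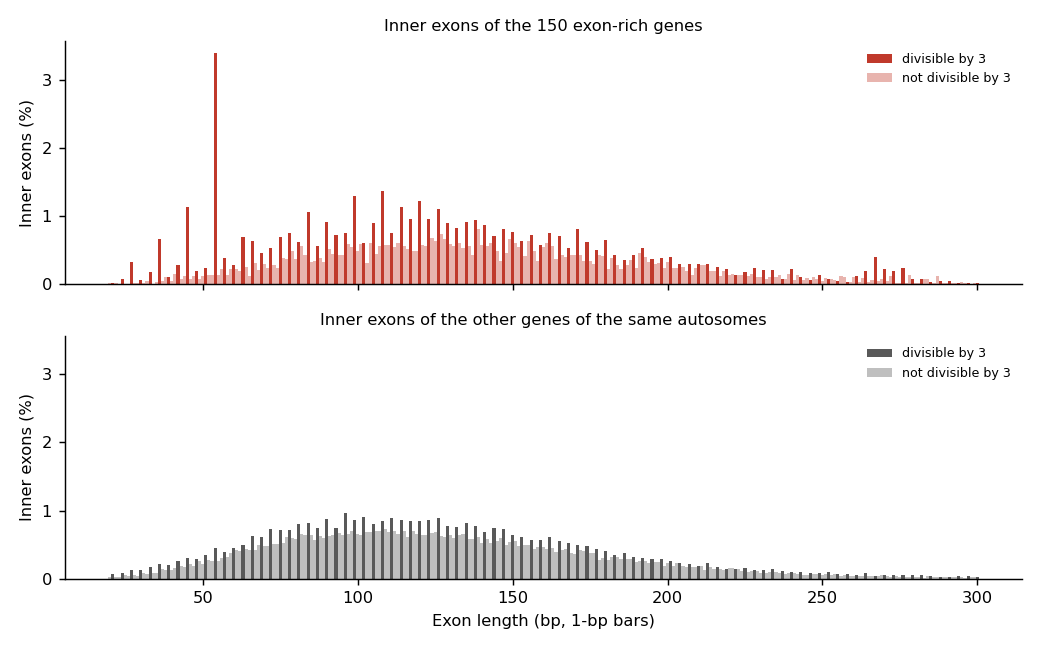
Percent of inner exons at each length from 20 to 300 bp, in bars of 1 bp, for the 150 exon-rich genes (top) and the other genes of the same autosomes (bottom). Dark bars are lengths divisible by 3. The bar at 54 bp reaches 3.39% in the exon-rich genes and 0.453% in the other genes.

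Inner exons divisible by 3 made up 4122 of 8522 in the 150 genes (48.4%), against 40.7% in the next genes with over 20 exons and 39.6% in all other genes of these autosomes. Much of the excess lay in the 17 genes with a recurrent length, where 912 of 1010 inner exons (90.3%) were divisible by 3. In the other 133 genes the share was 42.7%. With the genes of largest span left out, the share was 39.0% for genes with 2 to 10 exons, 38.5% for 11 to 20, 40.4% for 21 to 30, 41.2% for 31 to 41, 47.7% for 42 to 59 and 48.9% for 60 to 120. Over the 150 genes the share of a gene ran from 19.3% to 98.9%, with a median of 43.5%. All 14 genes at or above 90% belonged to the 17 with a recurrent length, and 12 of the 1108 next genes (1.08%) reached 90%. The gene of chromosome 13 with 93 exons had the highest share, and 85 of its inner exons in a row were divisible by 3. The genes of chromosomes 11 and 6 described above followed, with 95.3% and 95.1%. At the low end stood a gene of chromosome 2 at 40959874 to 41183087, with 59 exons and 19.3%, and a gene of chromosome 16 at 8276039 to 8323570, with 43 exons and 22.0%.

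The third lowest share, 24.2%, belonged to a gene of 101 exons on chromosome 9 (12311933 to 12386535, plus strand), which repeated a whole block of exons. Its exons 8 to 15 measured 284, 278, 596, 565, 200, 381, 287 and 272 bp, and the same 8 lengths followed each other in the same order at 6 places along the gene. These blocks made up 17178 bp, which is 67.4% of its exon sequence. The gene had 13741 reads in library B and 6994 in library A, or 12.9 and 13.7 RPKM. A block of at least 4 different lengths that recurred within the same gene was found in 6 of the 150 genes (4%), in 2 of the 1108 next genes (0.181%) and in 0 of the 200 genes of largest span. This feature was chosen after the exon lengths had been seen. A gene with more exons has more places for such a block. The median exon number was 53 in the 150 genes, 25 in the next genes and 18.5 in the genes of largest span. The part of exon number in the difference was not tested. Multi-mapping reads did not enter the counts, and how far that lowers the counts of genes with repeated exons was not tested.

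The usual size of an inner exon differed little from that of other genes. The median was 130 bp, against 123 bp in the next genes with over 20 exons and 124 bp in all other genes of these autosomes. Inner exons under 30 bp made up 0.610% and those over 1000 bp made up 0.434%, against 0.683% and 0.945% in the other genes. The longest inner exon measured 12573 bp, in a gene of 48 exons on chromosome 5 at 27265026 to 27313573, which had 9.44 RPKM in library B and 9.68 RPKM in library A. First exons had a median of 185 bp and last exons of 1480 bp, against 202 and 1637 bp in the other genes. The last exon was the longest of the gene in 112 of the 150 genes (74.7%). The share was 84.7% in the next genes with over 20 exons and 86.8% in all other genes with more than 1 exon. It depends on exon number, for which no allowance was made.

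Introns were short. Their median was 752 bp over 8672 introns, against 910 bp in the next genes with over 20 exons, 1020 bp in all other genes of these autosomes and 4402 bp in the genes of largest span, which were left out by rule. The choice itself limits intron length, since it took many exons within a limited span. With no genes left out for span, the median intron of the genes with most exons was 842 bp. Introns under 100 bp made up 4.88%, against 4.57% in the other genes. First introns had a median of 4065.5 bp and later ones of 742 bp. The same medians were 3571.5 and 889 bp in the next genes with over 20 exons, and 2089.5 and 979 bp in all other genes. The first intron exceeded the gene's own median intron in 120 of the 150 genes (80%), against 74.8% of the next genes with over 20 exons and 64.1% of all other genes with more than 2 exons. It was the longest intron in 62 genes (41.3%), against 37.5% of the next genes with over 20 exons and 39.5% of all other genes. Such shares depend on the number of introns, for which no allowance was made. Exons covered a median of 12.3% of the span, against 18.5% in the other genes. The median of the next genes with over 20 exons was nearly the same as that of the 150 genes. The most compact gene by span, on chromosome 3 at 123107977 to 123121788, held 45 exons in 13.8 kb with a median intron of 99 bp, and 49.8% of its span was exon. It had 4.67 RPKM in library B and 4.65 RPKM in library A. The widest, on chromosome 3 at 118905696 to 119157498, held 67 exons in 251.8 kb with a median intron of 1534.5 bp, and had 1.82 RPKM in library B and 1.88 RPKM in library A. Compact genes could also be expressed at a high level, as was a gene of 43 exons in 19.4 kb on chromosome 20 at 5583826 to 5603221, with 30.7 RPKM in library B and 31.1 RPKM in library A. The next widest genes lay on chromosome 1 at 28646022 to 28893346, with 4.15 RPKM in library B and 4.07 RPKM in library A, and on chromosome 2 at 77650110 to 77892478, with 8.86 and 7.95 RPKM.

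All 150 genes had reads in both libraries. Counts ran from 71 to 148346 in library B, with a median of 2893.5, and from 36 to 74459 in library A, with a median of 1468.5, and 143 genes had at least 100 reads in both. The genes held 1.91% of reads in library B (95% Clopper-Pearson interval 1.910 to 1.918) and 1.95% in library A (1.940 to 1.952 by the same method), with 1.32% of the genes of the table. These intervals cover counting error only, and since mates of a pair were counted separately they are too narrow.

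Per kilobase the exon-rich genes stood below other genes. Their median level was 6.53 RPKM in library B and 6.97 RPKM in library A. All other genes of these autosomes had medians of 9.63 RPKM in library B and 9.65 RPKM in library A, the next genes with over 20 exons 8.55 and 8.57 RPKM, and the genes of largest span 4.50 and 4.49 RPKM. Without division by length the order turned round, with medians of 69.0 and 73.5 CPM (counts scaled to library size only) in library B and library A in the exon-rich genes against 37.7 in both libraries in the other genes. Of the 150 genes, 99 lay below the median level of the other genes. Only 9 exceeded 30 RPKM in both libraries (6%), against 18.4% of the other genes, and 11 lay under 1 RPKM in both (7.33%), against 5.24%. With 1 library per label these differences between sets of genes carry no test. The exon-rich genes had a median exon sequence of 9788.5 bp, against 3402 bp in the other genes. Counts per gene do not show how evenly reads covered such long transcripts, and the part of length in the lower RPKM was not tested.

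**Figure D3:**
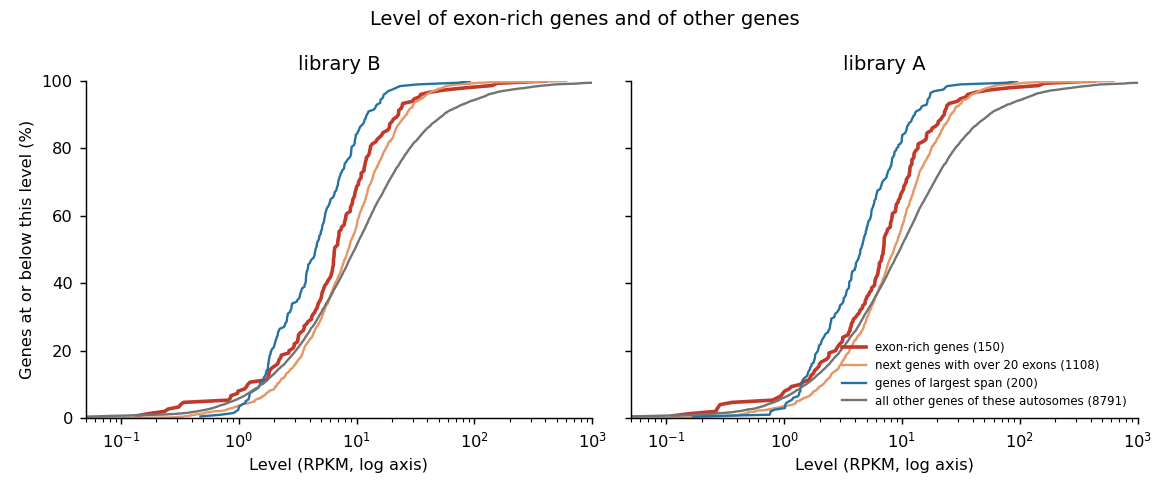
Percent of genes at or below each level, in RPKM on a log axis from 0.05 to 1000, in library B (left) and library A (right). At its middle the curve of the 150 exon-rich genes lies between those of the genes of largest span and of the other genes, with medians of 6.53 RPKM in library B and 6.97 RPKM in library A.

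Genes were also grouped by exon number, with the genes of largest span left out. Of the 6 classes of genes with at least 2 exons, the 50 genes with 60 to 120 exons had the lowest median RPKM in both libraries. The 117 genes with 1 exon stood lower still, at 2.27 RPKM in library B and 3.02 RPKM in library A. Medians in library B and library A were 10.3 and 10.2 RPKM at 2 to 10 exons, 10.5 and 10.4 RPKM at 11 to 20, and 8.73 and 8.79 RPKM at 21 to 30. They were 7.76 and 7.60 RPKM at 31 to 41 exons, 7.25 and 7.74 RPKM at 42 to 59, and 5.71 and 5.92 RPKM at 60 to 120. The order was not even, since in library A the median at 42 to 59 exons was above that at 31 to 41. Without division by length the classes with many exons stood higher. Medians in library B and library A were then 31.3 and 31.5 CPM at 2 to 10 exons. They were 71.0 and 71.6 CPM at 42 to 59, and 70.8 and 74.2 CPM at 60 to 120. Among the 150 genes Spearman's rho with the mean level was -0.34 for span, -0.28 for exon number and -0.23 for median intron length. In the 1108 next genes the same values were -0.09, -0.03 and -0.10. The 50 genes with the shortest median introns, 89 to 689 bp, had a median of 9.14 RPKM in library B and 9.66 RPKM in library A. The 50 with the longest, 964 to 2142.5 bp, had 5.78 and 5.99 RPKM. These are relations across genes of the same 2 libraries, in which the level is divided by exon length, and they carry no p-value.

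A single gene supplied the largest part of the reads of the 150. Apl_2G0001140, on the minus strand of chromosome 2 at 8129057 to 8282233, with 48 exons and 8650 bp of exon, took 18.5% of them in library B and 19.1% in library A. It had 148346 reads in library B and 74459 in library A, or 409 and 431 RPKM, and ranked 144 by level among all 11383 genes. Next was Apl_9G0000650, on the minus strand of chromosome 9 at 3409413 to 3460248, with 48 exons, at 156 RPKM in library B and 161 RPKM in library A. Then came a gene of 50 exons on chromosome 5 at 27142416 to 27189178, at 141 RPKM in library B and 145 RPKM in library A. The genes of chromosomes 2 and 7 with exons of 54 bp, described above, were the fourth and the fifth. Only the first 3 exceeded 100 RPKM in both libraries. None of these 3 had a recurrent inner length, but Apl_9G0000650 contained a block of 6 lengths at 2 places.

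The lowest levels were those of a pair of genes on chromosome 8 with nearly the same exons. Apl_8G0002630, on the minus strand at 18927856 to 19084398, had 104 exons, and the other gene, on the plus strand at 37590205 to 37779874, had 106. Exons 2 to 90 of Apl_8G0002630 had the lengths of exons 4 to 92 of the other gene, 89 in a row. Both ended in an exon of 1836 bp, and a series of 171 bp exons counted 5 in Apl_8G0002630 and 6 in the other gene. Apl_8G0002630 had 101 reads in library B and 40 in library A, or 0.135 and 0.112 RPKM, and the other gene had 130 and 57 reads, or 0.172 and 0.158 RPKM. Reads that fit both genes equally were not counted with the settings recorded, and sequence was not compared, so the part of this in the low values was not tested. The third lowest was a gene of 69 exons on chromosome 1 at 46268219 to 46379086. It had 94 reads in library B and 51 in library A, or 0.236 and 0.269 RPKM.

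Exon series shared with another gene were about as frequent as in the next genes with over 20 exons and more frequent than in all other genes of these autosomes, which have a median of 9 exons. A series of at least 8 adjacent inner exons of matching length, with at least 4 different lengths, was shared with another gene of the table by 43 of the 150 genes (28.7%). It was found in 286 of the 1108 next genes (25.8%), in 54 of the 200 genes of largest span (27%) and in 710 of the 8791 other genes (8.08%). The 43 genes formed 52 pairs, of which 16 joined 2 members. The longest after the pair of chromosome 8 was a series of 53, between the gene of chromosome 8 at 8024480 to 8167083 and a gene on contig ptg000046l, followed by 49 between the same gene of chromosome 8 and a gene of chromosome 17. Apl_9G0000650 shared 35 adjacent inner exon lengths, exons 13 to 47 in both, with a gene on contig ptg000063l at 4038 to 44784. That gene had 66.9 RPKM in library B and 66.8 RPKM in library A. The counts of such genes are uncertain to the extent that their sequences are alike. The median of the mean level over both libraries was 8.40 RPKM in the 43 genes and 6.43 RPKM in the other 107.

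Library B and library A gave nearly the same values for these genes, as they did for most genes tested. Over the 150 genes the log2 ratio, library B divided by library A, ran from -0.24 to 0.28 with a median of -0.01. It was above 0 in 64 genes and below 0 in 86. The median over the other genes of these autosomes was also -0.01. All 150 genes passed the minimum of 10 reads in at least 1 library. None of the 150 was 2-fold apart, where 0.755% of the 11256 genes tested were (0.489% with the higher value in library B and 0.267% in library A). With a limit of 25% (the higher value over the lower) 0 of the 150 were apart, where 7.55% of all tested genes were, 4.77% with library B above and 2.78% with library A above. The spread of the log2 ratio, as a median absolute deviation on the scale of a normal SD, was 0.081 in the 150 genes. It was nearly the same, 0.085, in the tested next genes with over 20 exons, and 0.106 in all other tested genes of these autosomes. The exon-rich genes had more reads per gene, with a median of 2893.5 against 1582 in library B and 1468.5 against 753 in library A. The part of read number in the narrower spread was not tested.

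**Figure D4:**
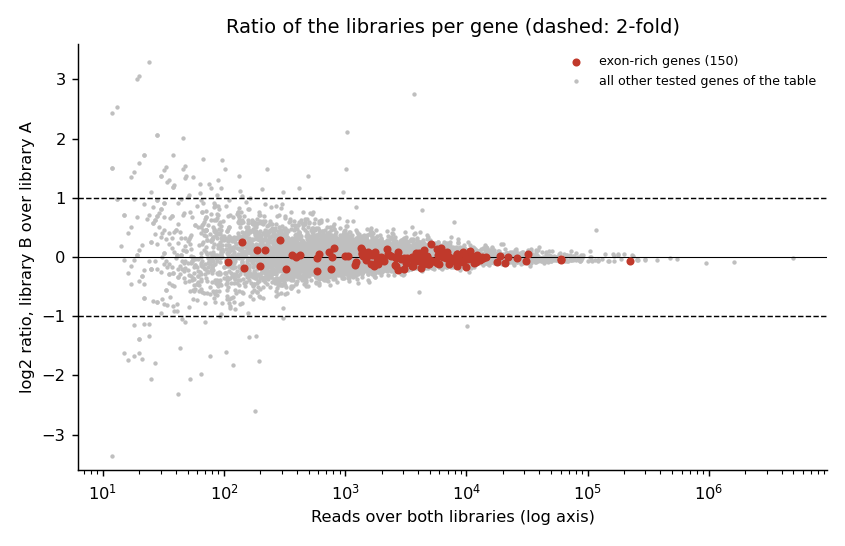
The log2 ratio, library B divided by library A, against the reads of each gene over both libraries on a log axis, for the 150 exon-rich genes (red) and all other tested genes (grey). The exon-rich genes lie between -0.24 and 0.28, inside the dashed lines at 2-fold.

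The widest ratios, looked for where the higher library had 100 reads or more, belonged mostly to genes with few reads. Library B held more reads, so a gene with few reads could pass this limit through library B alone. Apl_12G0002630 and Apl_8G0002630 passed it in this way. Apl_12G0002630 (84 exons, chromosome 12, 12664143 to 12768943) had 207 reads in library B and 81 in library A. Its ratio was 1.22-fold (0.937 to 1.59 from reads, 0.844 to 1.81 from read pairs, exact conditional binomial 95% intervals). Apl_8G0002630, of the pair described above, had a ratio of 1.20, with intervals of 0.826 to 1.78 by reads and 0.696 to 2.11 by pairs. Apl_25G0001300 (55 exons, chromosome 25, 7846657 to 7883039) had the lowest ratio, with 372 reads in library B and 210 in library A. Its ratio of library B over library A was 0.844 (0.711 to 1.004 by reads, 0.661 to 1.08 by pairs). For these 3 genes the intervals from reads and from pairs included equal levels. Apl_1G0004840 (43 exons, chromosome 1, 44486792 to 44536736) had 1742 reads in library B and 962 in library A. Its ratio was 0.863 (0.797 to 0.934 by reads, 0.771 to 0.966 by pairs), and both intervals left out equal levels. Intervals that left out equal levels were found by reads in 37 of the 150 genes (24.7%), against 25.2% of the 11256 genes tested. By pairs they were found in 23 of the 150 (15.3%), against 11.6%. In the tested next genes with over 20 exons the shares were 20.8% by reads and 8.67% by pairs. Intervals are narrower in genes with more reads, and the exon-rich genes had more reads per gene. The part of read number in these shares was not tested. The counts of such intervals carry no adjustment for the number of genes looked at. The intervals compare the 2 libraries and not the organs on their labels.

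The exon-rich genes were spread over the autosomes much as other genes were. They lay on all 23 autosomes, and 93 of them (62%) on the 8 autosomes over 30 Mb, against 63.2% of the other genes. Chromosome 1 held 20 of them and chromosome 2 held 18. Chromosome 16 had the highest share, with 9 of 250 genes (3.6%, 95% Clopper-Pearson interval 1.66 to 6.72), and chromosome 21 the lowest, with 1 of 273 (0.366%, 0.00927 to 2.02). The share over all 23 autosomes, 1.68%, lay inside the interval of each of the 23. Of the 150 genes 65 lay on the plus strand (43.3%) and 85 on the minus strand, against 50.8% on the plus strand for the other genes. Their median distance from the nearer end of the annotated chromosome was 9.69 Mb, against 10.7 Mb, and 26.7% lay within 5 Mb of it, against 26.9%. The nearest neighbour in the table was at a median of 4.79 kb, against 5.09 kb, and 24% had one within 1 kb, against 22.2%.

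**Figure D5:**
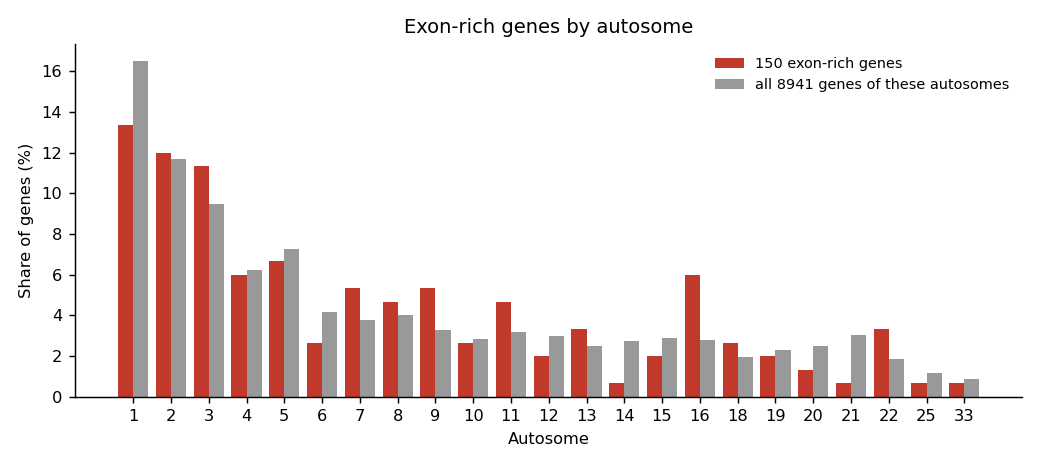
Share in percent of the 150 exon-rich genes (red) and of all 8941 genes (grey) on each of the 23 autosomes of at least 10 Mb. Chromosome 16 holds 9 of the 150 genes (6%) and 2.80% of all genes, and chromosome 1 holds 13.3% and 16.5%.

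Of the exon-rich genes, 4 pairs were neighbours in the table. The closest pair lay on chromosome 10, 333 bp apart and pointing away from each other. The gene at 4582015 to 4717338 had 45 exons and 3.33 RPKM in library B and 3.14 RPKM in library A, and the gene at 4717672 to 4808150 had 51 exons and 5.04 and 5.53 RPKM. On chromosome 5, the gene of 50 exons with 141 RPKM in library B and 145 RPKM in library A was followed after 75.8 kb by the gene with the inner exon of 12573 bp. That gene lay on the same strand and had 9.44 RPKM in library B and 9.68 RPKM in library A. The chromosome 7 pair with exons of 54 bp was described above. The remaining pair, on chromosome 11, had 85 and 59 exons and lay 68.0 kb apart, with 4.86 RPKM in library B and 4.97 RPKM in library A for the first gene and 6.45 and 6.76 RPKM for the second.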

How the data were processed

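Each deposited file gives a raw count per gene, which featureCounts 2.1.1 summed over the gene's exons, per the file headers. The authors' command, as the headers record it, was in paired-end mode and set no option for strand, read pairs, multi-mapping or overlapping reads, so mates counted separately, strand was ignored and reads with several places were left out. HISAT2 and SAMtools appear in the submitters' processing notes. A build name and settings for trimming and alignment were not given in the sources used here. Per the labels' protocols, a SMARTER mRNA-Seq kit was used. The pairing of files with labels is that of the deposit.

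Counts were scaled with TMM (edgeR 4.0.16, R 4.3.3), divided by exon length for RPKM, and compared as log2 ratios with a prior count of 2 where a gene reached 10 reads in 1 library or both. With 1 library per label no model, p-value or set test was used. Exon and intron lengths were computed from the coordinates in the files and ordered by strand. DESeq2 1.42.0 size factors served as an alternative scaling.

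The members, lists and tests were chosen with earlier results of these data known. Named genes were those with most exons, the highest and lowest level, the widest ratios, the most uniform inner exons, the highest and lowest share divisible by 3, and the extreme spans. IDs were printed for the first 2 in exon number, in level and in each direction of the ratio. Neighbouring pairs, genes in shared series or with repeated blocks, the longest inner exon, the family of lengths around 54 bp and other genes with recurrent lengths were singled out after their values were seen. The ratio and exon functions were tested on simulated data.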

Additional observations from a re-analysis of the deposited data

How the results depend on the processing

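Of 50 alternatives for 10 results, 39 left the value within its exact binomial interval or the count within 1.5 times, and 11 moved it; 8 were added after the data were seen. The median level was 71.4 in CPM, without division by length, a different unit by construction. The share of member reads was 1.94% in library B and 1.96% in library A without the 100 most abundant genes, because the total is smaller. The median inner exon was 132.75 bp as a median of gene medians and 136 bp without the genes of a recurrent length. The share divisible by 3 was 43.5% as a median over genes, 46.9% with 200 genes, and 42.7% without the genes of a recurrent length. Its excess over the 40.7% of the next genes thus rests largely on those 17 genes. The 40.7% still includes the 18 next genes with a recurrent length, so the 42.7% and the 40.7% are not fully alike. The median intron was 815.5 bp as a median of gene medians and 842 bp with no genes left out for span. With a limit of 50 Mb, 49.3% of the members lay on larger autosomes, against 51.2% of the other genes. Scaling with total counts or DESeq2 size factors, and thinning of library B, moved no member past 2-fold. No paired analysis was possible because there is a single library per label. Low depth widens the intervals of the members with few reads.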
